A study of Mus musculus with 4 samples.

Results

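The baseline transcriptome of *Ebf1*-/- hematopoietic progenitors carrying a control virus was described from 2 of the 4 samples in the series, those titled EMPTY. The cells were lineage-marker-negative (Lin-) progenitors from the fetal liver of *Ebf1*-/- mouse embryos, taken at mid-gestation per the methods. They had been infected with the empty MDH1-PGK-GFP retrovirus, which carries a GFP gene and no microRNA insert, and were grown with SCF, IL-7 and Flt3-ligand at 10 ng/mL each. The methods give 7 days on OP9 cells, a mouse bone marrow stromal line, as the general culture condition, and about 100 ng of RNA per sample was labelled for a single-dye Agilent mouse array. The remaining 2 arrays, from *Ebf1*-/- progenitors given a miR-195 virus, were not used. Neither the labels nor the methods say whether the 2 EMPTY samples came from separate embryos or cultures, whether GFP+ cells were sorted before extraction, or how far stroma cells were removed, so the spread between the arrays may be technical.

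EBF1 is the transcription factor that commits lymphoid progenitors to the B lineage. Together with E2A (encoded by *Tcf3*) and PAX5 it switches on the genes of the pre-B cell receptor and of B cell signalling. Progenitors that lack it stop before the pro-B cell stage. They keep the capacity to form natural killer (NK) cells, innate lymphoid cells, dendritic cells and myeloid cells. IL-7 and Flt3-ligand are the cytokines that expand lymphoid progenitors in culture, and stroma cells supply further factors such as CXCL12.

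A gene was called detected where a probe was marked well above background by the scanner software on both arrays. Its level is the log2 signal of its brightest probe minus the 75th percentile of all probes on that array, so a level of 0 equals that percentile. The arrays had 23828 and 24655 of 39429 probes well above background, and the median signal over local background was 18.5 and 15.3. Of 22782 genes with a probe, 14531 (63.8%) were detected on both arrays, 850 on 1 array and 7401 on neither. Levels of the detected genes ran from -6.38 to 8.76, a range of 15.1 log2 units. Percentiles below are positions of a gene's mean level among these 14531 genes, and 7266 genes, 31.9% of all genes with a probe, lay at or above the 50th. The shares of 63.8% and 31.9% are the background for the list counts below. Probes differ in how strongly they bind their target, so a percentile ranks probe signals and not amounts of RNA. In bulk RNA, fewer cells of a type and less RNA per cell cannot be told apart.

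A list of 39 measured genes of unrelated tissues shows what detection alone means here. Of these, 14 (35.9%) were detected, at a median percentile of 12.4, and 2 lay above the 50th percentile. *Ins2* (insulin) was at -3.83 on replicate 1 and -3.91 on replicate 2, and *Myh6* (cardiac myosin) at -6.14 on both. Detection at a low level was thus also seen for genes that define pancreas and heart. The exceptions were *Mbp* (2.80 and 2.82) and *Snap25* (1.99 and 2.28), which were chosen as markers of myelin and of neurons.

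*Ebf1*, inactivated in these progenitors, is measured by 1 probe. It was detected at 2.02 on replicate 1 and 1.90 on replicate 2, at the 73rd percentile. Where this probe lies relative to the disrupted part of the gene was not determined here, so its signal does not check the genotype.

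The B lineage list was detected widely, at levels that varied among its members. Of 34 members with a probe, 32 were detected and 11 lay above the 50th percentile (32.4%, beside 31.9% of all genes). The defining markers named here were low. *Cd79a*, a signalling chain of the B cell receptor, was at -6.18 on replicate 1 and -6.13 on replicate 2, the 0.162th percentile of detected genes. *Pax5*, which maintains B cell identity, was at -5.59 and -6.19. Both were near the level of *Myh6*, the lowest of the detected unrelated tissue genes by mean level. *Vpreb1*, part of the surrogate light chain, was higher at -1.65 and -1.51, and *Cd79b*, the partner of *Cd79a*, at -1.17 and -0.95, both below the 50th percentile. *Igll1* has no probe named here, and *Pou2af1*, a B cell coactivator, was not detected.

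Several B lineage members of high level were signalling and regulatory genes that B cells share with myeloid or dendritic cells. *Irf8*, a transcription factor of dendritic and B cells, was at 5.81 on replicate 1 and 5.94 on replicate 2, the 97th percentile. *Plcg2*, the phospholipase downstream of immunoreceptors, was at 5.63 and 5.74. *Spib*, an Ets factor of B cells and plasmacytoid dendritic cells, was at 3.92 and 3.98, and the kinase *Syk* and its adaptor *Blnk* were at the 89th percentile. Other members were high too, with *Cplx2* at 5.19 and 5.52 and *Cd72* at 2.51 and 2.88. *Cd22*, an inhibitory coreceptor, was at -0.92 and -0.84. Signalling and regulatory members were not all high. *Btk* lay at the 81st percentile, but *Lyn* at the 43rd, *Pou2f2* at the 39th, *Bank1* at the 34th, *Rasgrp3* at the 21st and *Blk* at the 17th.

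The palindrome at the core of EBF1 binding sites was searched as TCCC and GGGA with any 2 bases between them, which reads the same on both strands, in the promoters of the B lineage genes. RefSeq promoters (GRCm38.p6, each spanning the annotated start) were at hand for 28 of them, and 1 held the palindrome, beside 297 of 32544 distinct promoters (0.913%). It was that of *Cd22*, shown from 80 to 21 bases before the start at chr7:30879049-30879108 on the minus strand, with the match in capitals:
*Cd22* promoter: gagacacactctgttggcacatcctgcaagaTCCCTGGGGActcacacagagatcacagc
The match begins 49 bases before the start. It is a match of letters, and binding was not measured here.

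Genes of stem and progenitor cells were among the brighter lists. Of 30 members, 24 were detected and 18 (60%) lay above the 50th percentile, with a median percentile of 77.6. All 6 defining markers were detected. *Cd34*, a surface sialomucin of progenitors, was at 5.50 on replicate 1 and 5.74 on replicate 2, and *Flt3*, the receptor of Flt3-ligand, at 4.65 and 4.70. *Myb*, a transcription factor required in progenitors, was at 4.02 and 4.35, and *Kit*, the SCF receptor, at 1.5 on both. *Ptprc* (CD45, the pan-leukocyte phosphatase) was at 2.22 and 1.56, and *Spi1* (PU.1) was lowest of the 6 at -0.74 and -0.70. The brightest member was *Ly6a* (Sca-1) at 6.37 and 6.33, followed after *Cd34* and *Flt3* by *Lyl1* at 4.13 and 4.42. The remaining members were *Slamf1*, *Mecom* and *Gata2*, detected on neither array, and *Procr*, *Erg* and *Hlf*, detected on 1. Other stem cell genes of the list were detected, with *Hoxa7* at the 88th percentile, *Meis1* at the 77th and *Bmi1* at the 67th. *Hoxa9*, *Hoxa10*, *Angpt1* and *Tal1* were lower, at the 46th, 45th, 26th and 19th percentiles.

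Of the fetal programme, which distinguishes fetal from adult progenitors, 13 of 15 members were detected, 8 of them above the 50th percentile. *Lin28b*, the RNA-binding protein that blocks let-7 maturation, was at -1.79 on replicate 1 and -1.17 on replicate 2. *Hmga2*, a chromatin protein that let-7 represses, was at 0.31 and 0.30, and *Igf2bp3* at 1.07 and 0.99, whereas *Igf2bp1* was not detected. *Hmga1* and *Arid3a* were the highest, at the 98th and 92nd percentiles, followed by *Sox4* (3.35 and 3.70), *H19* (2.12 and 2.69) and *Ezh2* (2.25 and 2.34).

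Early lymphoid genes were nearly all present. Of 29 members, 28 were detected, 19 (65.5%) lay above the 50th percentile and the median percentile was 70.8. *Il7r*, the IL-7 receptor chain, was at 3.48 on replicate 1 and 3.24 on replicate 2. The recombinase genes were dimmer, with *Rag1* at -2.20 and -2.24 and *Rag2* at -0.29 and -0.34, and *Dntt*, the enzyme that adds bases at V(D)J joints, was at 0.03 and 0.07. The brightest members were *Ccr9* (6.20 and 6.27), a chemokine receptor of thymus-homing progenitors and plasmacytoid dendritic cells, and *Ly6d* (6.08 and 6.16), which marks B-biased lymphoid progenitors. *Cd93*, *Foxp1* and *Xrcc6* followed at the 96th, 94th and 94th percentiles. *Tcf3*, the partner of EBF1, was at 1.42 and 1.65, and *Foxo1* was near 0 at 0.23 and -0.27.

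**Figure D1:**
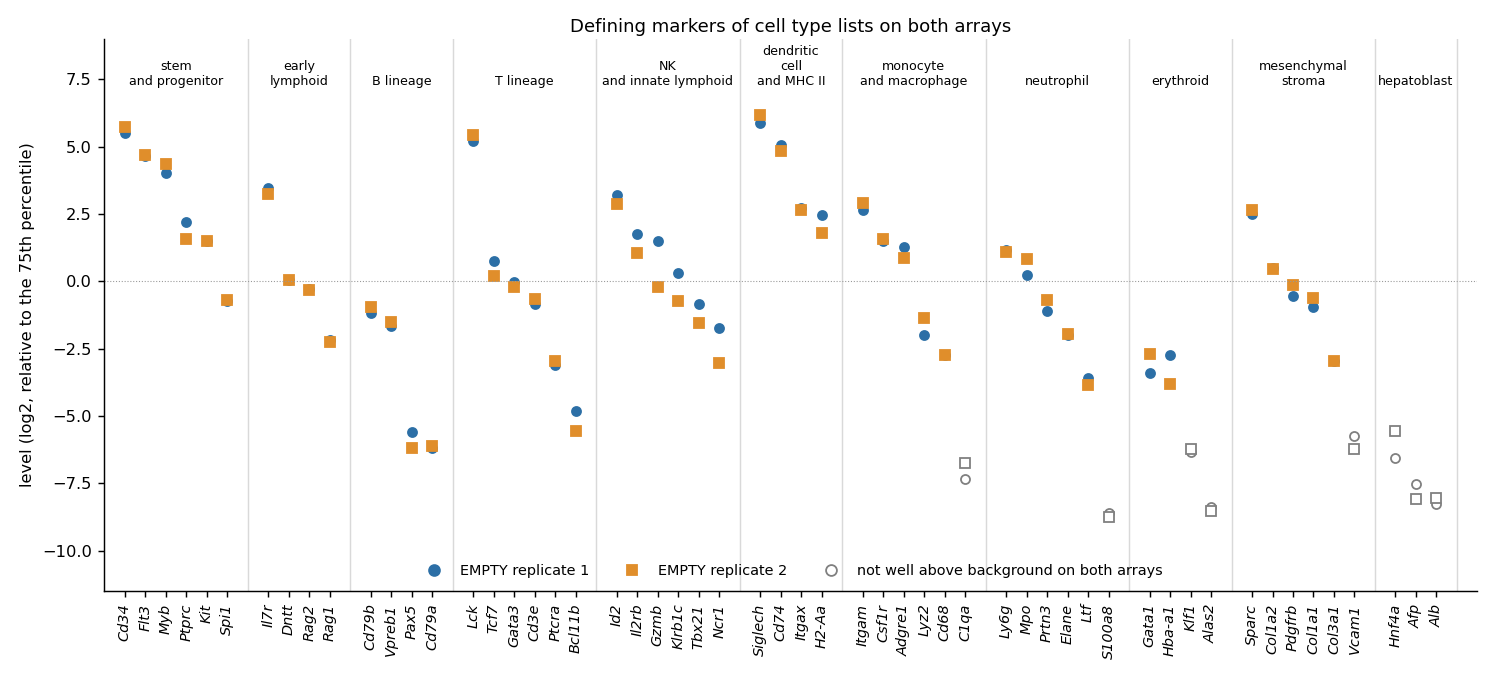
Level (log2, relative to the 75th percentile of each array) of defining markers of 11 cell type lists on EMPTY replicate 1 (circles) and replicate 2 (squares), with open symbols for genes not well above background on both arrays. *Cd34*, *Flt3*, *Lck* and *Siglech* lie above 4, whereas *Pax5* and *Cd79a* lie below -5 and *Alb* was not detected.

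Dendritic cell genes were well represented. The list of dendritic cell and MHC class II genes had 22 of 23 members detected and 19 (82.6%) above the 50th percentile, with a median percentile of 77.2. *Bst2*, a tetherin that is high on plasmacytoid cells, was at 6.81 on replicate 1 and 6.96 on replicate 2. *Cox6a2*, a respiratory chain subunit that mouse plasmacytoid cells express, was at 6.17 and 6.42, and *Cst3* at 5.82 and 5.66. *Siglech*, the surface lectin that defines these cells in mice, was at 5.87 and 6.17 by its brightest probe and at 4.67 and 4.28 by its second. *Pacsin1* was at 2.88 and 2.95, and *Tcf4* (E2-2), the transcription factor that directs plasmacytoid fate, at 2.64 and 2.50 in the early lymphoid list. Apart from *Cst3*, these genes are known from plasmacytoid dendritic cells, and all were picked from the wider lists after their values were seen. The arrays differed by at most 0.30 between their brightest probes.

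Antigen presentation genes were also present. *H2-Eb1* was at 5.25 on replicate 1 and 4.69 on replicate 2, *Cd74* (the invariant chain) at 5.08 and 4.83 and *H2-Aa* at 2.46 and 1.81, each lower on replicate 2. *Itgax* (CD11c) was at 2.72 and 2.63. Genes known from conventional dendritic cells varied. *Clec9a* was at -5.01 and -5.89, *Zbtb46* at -4.08 and -5.07, and *Xcr1* was detected on neither array. In the same list, *Cd209a* lay at the 21st percentile, *Clec10a* at the 52nd, *Batf3* at the 58th and *Ccr7* at the 93rd. *H2-Ab1* has no probe named here. *Ciita*, which drives MHC class II transcription, was at -3.69 and -3.42 in the B lineage list.

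All 22 interferon-induced genes were detected, and all lay above the 50th percentile with a median percentile of 84.5. *Isg15*, a ubiquitin-like modifier, was at 6.71 on replicate 1 and 6.84 on replicate 2. *Oas1a*, an RNA sensor, was at 5.69 and 5.94, and *Irf7*, the interferon regulator that plasmacytoid cells hold at a high basal level, at 3.27 and 3.28. *Ifit1* was the lowest at 0.70 and 0.36. *Psmb8*, *Igtp* and *Oasl2* lay between the 93rd and 95th percentiles.

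The NK and innate lymphoid list had 33 of 36 members detected and 18 (50%) above the 50th percentile. Its brightest members were *Tyrobp* (7.02 on replicate 1 and 7.24 on replicate 2) and *Fcer1g* (5.96 and 6.04), signalling adaptors that NK and myeloid cells share, with *Ccl5* (6.17 and 6.11), *Cd7* (5.41 and 5.33) and *Klrd1* (4.20 and 3.96). *Id2*, which restrains E proteins and is required for the innate lymphoid branch, was at 3.21 and 2.89. The other defining markers differed more between the arrays. *Il2rb* was at 1.76 and 1.04, *Gzmb* (granzyme B) at 1.49 and -0.22, *Klrb1c* (NK1.1) at 0.29 and -0.74, *Tbx21* (T-bet) at -0.84 and -1.53 and *Ncr1* (NKp46) at -1.74 and -3.03. All 5 were higher on replicate 1. The type 2 cytokines *Il13* and *Il5* were detected on neither array.

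T lineage genes were split between early signalling genes and commitment genes. Of 31 members, 29 were detected and 13 (41.9%) lay above the 50th percentile. *Lck*, the proximal T cell kinase that NK cells also express, was at 5.2 on replicate 1 and 5.44 on replicate 2, and *Cd2*, *Thy1*, *Cd28* and *Zap70* lay between the 79th and 90th percentiles. *Tcf7* and *Gata3*, transcription factors of early T and innate lymphoid cells, were at 0.77 and 0.21 and at -0.03 and -0.20. *Cd3e* was at -0.84 and -0.65. *Ptcra*, the pre-T cell receptor chain, was at -3.10 and -2.98, and *Bcl11b*, the T commitment factor, at -4.82 and -5.55. Of the Notch targets, *Nrarp* was not detected, *Hes1* was at -5.19 and -4.81, and *Dtx1* was higher at -0.81 and -1.01.

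Myeloid lists were represented in part. Of 33 monocyte and macrophage genes, 28 were detected and 19 (57.6%) lay above the 50th percentile, led by *Mpeg1* (5.43 on replicate 1 and 5.27 on replicate 2), *Ctss* (5.12 on both) and the NADPH oxidase subunit *Ncf4* (4.31 and 4.32), which dendritic cells share. *Csf1r*, the M-CSF receptor, was at 1.49 and 1.57 and *Adgre1* (F4/80) at 1.29 and 0.87. Lysozyme (*Lyz2*) was lower at -2.01 and -1.38 and *Cd68* at -2.74 and -2.75. The complement gene *C1qa* and the mature macrophage genes *Msr1*, *Cd163* and *Vsig4* were detected on neither array. *Itgam* (CD11b) was at 2.63 and 2.89 by its brightest probe, which holds a dinucleotide repeat, and its next probe was at -2.11 and -2.71.

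Of 27 neutrophil genes, 17 (63.0%, beside 63.8% of all genes) were detected. Above the 50th percentile lay 7 of the 27, beside 31.9% of all genes. The primary granule gene *Mpo* was at 0.23 on replicate 1 and 0.84 on replicate 2, and *Prtn3* and *Elane* were at -1.12 and -0.69 and at -2.00 and -1.97. *Ly6g* was at 1.17 and 1.08 and *Anxa1* at 3.97 and 3.53. Of the genes of later granulocytes, *Ltf* was detected at -3.58 and -3.85, and *S100a8*, *S100a9* and *Ngp* were detected on neither array. The brightest member, *Csf3r* (5.60 and 5.95), is measured by 1 probe, whose sequence is taken up below.

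The remaining hematopoietic lists had few members above the 50th percentile, the erythroid list the most. Of 22 mast cell and basophil genes, 7 (31.8%) were detected, and *Fcer1a*, *Ms4a2* and *Mcpt8* were not. *Tpsb2* and *Cpa3*, mast cell proteases, were at -0.56 and -0.24 and at -2.13 and -1.75. Of 9 eosinophil genes, 4 were detected, among them *Il5ra* (-5.09 and -4.92) and *Prg2* (-5.01 and -4.97), and *Epx* was not. *Siglecf* was the brightest of these at 0.41 and 0.09. Of 23 erythroid genes, 15 (65.2%, beside 63.8% of all genes) were detected and 5 (21.7%) lay above the 50th percentile. These were *Hemgn*, whose probe is taken up below, *Tfrc*, the transcription factors *Gfi1b* (1.64 and 1.94) and *Nfe2* (1.46 and 1.87), and *Bpgm* (0.01 and 0.11). Of the defining genes, *Klf1* and *Alas2* were not detected, and *Hba-a1* was at -2.75 and -3.83 and *Gata1* at -3.42 and -2.69. *Tfrc*, the transferrin receptor that all dividing cells use, was at 2.75 and 2.73. Of 17 megakaryocyte genes, 10 were detected and 1, *Itgb3* (3.40 and 3.15), lay above the 50th percentile. *Itga2b*, *Pf4* and *Gp9* were at -5.39 and -5.15, at -5.09 and -4.49 and at -2.04 and -1.84, and *Ppbp* was not detected.

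**Figure D2:**
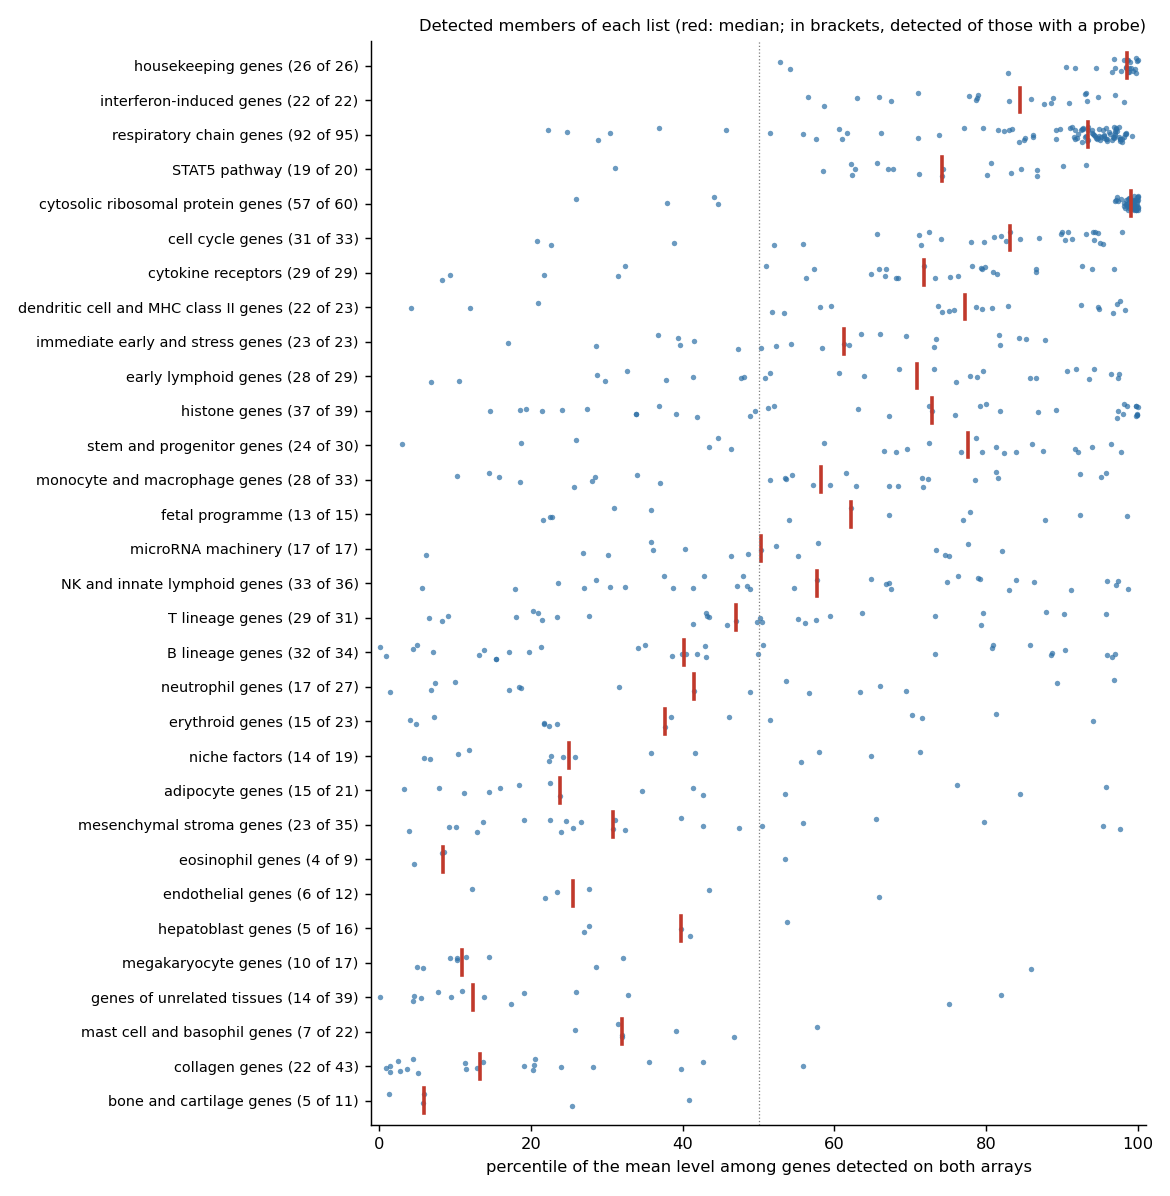
Percentile of the mean level among the 14531 genes detected on both arrays (horizontal axis) for each detected member of 31 gene lists, with the median in red and, in brackets, the members detected out of those with a probe. Lists are ordered by the share of their probed members above the 50th percentile. Housekeeping, interferon-induced, respiratory chain, STAT5 pathway and ribosomal protein genes lie at the top, and collagen, mast cell and bone genes at the bottom.

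Stroma genes were measurable at low levels, and their share of the RNA was not determined. Of 35 mesenchymal stroma genes, 23 (65.7%, beside 63.8% of all genes) were detected, with a median percentile of 30.9. Above the 50th percentile lay 6 (17.1%, beside 31.9% of all genes). The 2 brightest members, *S100a4* (6.47 and 6.12) and *Vim* (5.34 and 5.03), are expressed by leukocytes as well. The summed signal of the list was 143 times the 75th percentile on replicate 1 and 117 times on replicate 2 with *S100a4* and *Vim*, and 13.8 and 14.9 times without them. *Sparc*, a matrix protein of mesenchymal cells, was at 2.52 and 2.64, *Col1a2* at 0.50 and 0.45, *Pdgfrb* at -0.55 and -0.12, *Col1a1* at -0.96 and -0.63 and *Col3a1* at -2.97 and -2.96. *Vcam1* was well above background on 1 array, and *Pdgfra*, *Postn*, *Lum*, *Dcn* and *Col5a2* were on neither. Over all 43 collagen genes with a probe, 22 (51.2%) were detected and 1, *Col1a2*, lay above the 50th percentile.

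Of 19 niche factors, 14 were detected and 4 lay above the 50th percentile. *Cxcl12*, the chemokine that retains B progenitors at stroma, was at 0.41 on replicate 1 and 0.49 on replicate 2, and *Csf1* at -0.86 and -0.94. *Kitl* (SCF), which was also added as protein, was at -5.15 and -5.16, and *Il7* was detected on neither array, as were *Jag1*, *Dll4*, *Tslp* and *Wnt5a*. *Tgfb1*, *Vegfa* and *Flt3l*, which hematopoietic cells also express, were brighter, between the 58th and 71st percentiles. OP9 cells can become adipocytes, and of 21 adipocyte genes 15 were detected. Their defining genes were dim, with *Pparg* at -3.10 and -2.87, *Fabp4* at -4.28 on both and *Adipoq* at -5.22 and -4.87, and *Plin1* was not detected. The brightest adipocyte-list member was *Fabp5* (5.16 and 5.54), which leukocytes express.

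Hepatoblast genes gave little signal. *Alb* and *Afp*, the main secreted proteins of hepatoblasts, were detected on neither array, and *Hnf4a* was well above background on 1. In all, 5 of 16 hepatoblast genes (31.3%) were detected, with *Apoa2* at 0.33 and 0.22 as the brightest. Endothelial genes were detected in 6 of 12, with *Kdr* (VEGF receptor) at 1.33 and 1.32, *Cdh5* at -2.58 and -2.42 and *Tek* absent. Of 11 bone and cartilage genes, 5 were detected and 0 lay above the 50th percentile; *Sp7* was at -5.73 and -5.86, *Col2a1* was detected on 1 array, and *Bglap* has no probe named here.

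Housekeeping, ribosomal protein, respiratory chain and cell cycle genes were among the brighter lists, and growth itself was not measured. All 26 housekeeping genes were detected, with a median percentile of 98.5, led by *Actb* at 8.65 on replicate 1 and 8.87 on replicate 2, the brightest gene on the array by mean level. *Tpt1*, *Ppia*, *Tuba1b*, *Actg1* and *Gapdh* followed within the top 1%, and *Eef1a1* was at 6.71 and 6.78. The commonly used references differed widely by probe signal, with *Hprt* at 3.98 and 3.95 and *Tbp* at 0.23 and 0.41. Of 60 cytosolic ribosomal protein genes, 57 were detected and 31 lay in the top 1%, and of 95 respiratory chain genes 92 were detected, at a median percentile of 93.4. Cell cycle genes were detected in 31 of 33, with 28 (84.8%) above the 50th percentile. *Mcm6*, a helicase subunit of replication, was at 6.45 and 6.61, *Pcna* at 5.15 and 5.22, *Mki67* at 4.71 and 4.83, *Top2a* at 3.13 and 3.07 and *Ccnb1* at 2.85 and 3.05. The 28 also include the cell cycle inhibitors *Cdkn1b* (2.08 and 1.97) and *Cdkn1a* (1.66 and 1.85). The inhibitors *Cdkn2c* (-1.13 and -1.22) and *Cdkn2a* (-2.51 and -3.80) were lower. *Tyms* was at -3.45 and -3.37, and *Aurkb* and *Ccne2* were not detected.

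Receptors for the added cytokines and their signalling chain were all present. All 29 cytokine receptors were detected and 24 (82.8%) lay above the 50th percentile. Besides *Flt3*, *Il7r* and *Kit*, given above, *Crlf2* (the TSLP receptor) was at 4.31 on replicate 1 and 4.49 on replicate 2, *Ifngr1* at 3.51 and 3.20 and *Il2rg*, the shared chain of the IL-7 receptor, at 2.90 and 2.62. *Epor* and *Il5ra*, receptors of the erythroid and eosinophil branches, were low at -3.34 and -3.24 and at -5.09 and -4.92. Of the STAT5 pathway, through which the IL-7 receptor signals, 19 of 20 members were detected and 18 (90%) lay above the 50th percentile. Its feedback targets *Socs2* (3.51 and 3.23) and *Cish* (2.27 and 1.83) and the kinase *Pim1* (0.46 and 0.94) were all above the 50th percentile, and *Ccnd2*, *Mcl1* and *Jak1* were the highest with *Socs2*.

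Immediate early and stress genes, which can rise during cell handling, were all detected, 16 of 23 above the 50th percentile. *Fos* was at 2.65 on replicate 1 and 2.94 on replicate 2, *Jun* at 2.88 and 2.68, *Egr1* at 2.04 and 1.89 and the heat shock gene *Hspa1a* at -3.98 and -3.88. *Asns*, *Txnip* and *Bnip3*, which respond to amino acid supply, glucose and low oxygen, were the brightest, at the 88th, 85th and 84th percentiles. The microRNA machinery was detected in full, 17 of 17, at a median percentile of 50.3. *Ago2*, the slicer Argonaute, was at 2.09 and 2.17, *Drosha* at 1.95 and 1.99 and *Dicer1* at 0.38 and 0.44. *Tarbp2*, *Ddx6* and *Cnot1* were the other bright members, at the 82nd, 78th and 75th percentiles.

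Of the sex-linked genes, *Xist*, the RNA that coats the inactive X chromosome, was at 0.19 on replicate 1 and 0.34 on replicate 2. All 6 genes of the Y chromosome, *Ddx3y*, *Kdm5d*, *Eif2s3y*, *Uty*, *Zfy1* and *Usp9y*, were well above background on neither array. The labels give no sex for the embryos.

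The 25 genes of highest level were mostly ribosomal protein and histone genes, but *Slc10a1* and *F10*, known from liver, stood among them. Besides *Actb* they included *Rpl9*, *Rps27a*, *Rpl37a*, *H2ac12*, *Rpl41*, *Exosc2*, *Rps16*, *Rps14*, *Rplp0*, *Rplp2*, *H2aj*, *Gm12508*, *Gm8580*, *Slc10a1*, *F10*, *Rps10*, *H2ac10*, *H2ac20*, *Gm4945*, *Rpl35*, *Rpl37*, *Gm2581* and *Tpt1*. *Slc10a1* encodes the hepatocyte bile acid transporter and *F10* coagulation factor X. *Slc10a1* stood at 8.26 on replicate 1 and 8.47 on replicate 2 by its brightest probe, while its second probe was at -8.23 and -8.43 and not well above background. *F10* stood at 8.31 and 8.42 by one probe and at -4.35 and -3.77 by the other. Both arrays gave the same picture.

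The sequences of these probes show what they have in common. Each window below is 30 bases of a 60-base probe as the array files give it, with a run of 14 bases shared with other probes in capitals. The first set shares a run among probes for a coagulation factor, a transcription factor, a chemokine and a Mediator subunit, and the probe of the dendritic cell lectin *Siglech* shares an overlapping run:
*F10*: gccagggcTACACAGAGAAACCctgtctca
*Elk1*: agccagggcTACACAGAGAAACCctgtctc
*Cxcl11*: gccagggcTACACAGAGAAACCctatctta
*Med16*: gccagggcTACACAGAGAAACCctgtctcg
*Siglech*: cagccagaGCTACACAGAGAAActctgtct
The second set shares a run between the bile acid transporter and the G-CSF receptor:
*Slc10a1*: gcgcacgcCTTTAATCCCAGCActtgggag
*Csf3r*: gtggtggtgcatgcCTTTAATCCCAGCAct
The third set reads the same run in 1 direction for 3 bright probes and in the other for *Nanog*:
*Medag*: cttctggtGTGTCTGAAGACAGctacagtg
*Synrg*: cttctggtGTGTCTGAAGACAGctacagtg
*Pbld1*: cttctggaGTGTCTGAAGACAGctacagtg
*Nanog*: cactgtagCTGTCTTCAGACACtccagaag
The first and second runs are letters of the mouse B1 repeat and the third of the B2 repeat, short interspersed elements that are copied many times through the genome and lie in introns and untranslated regions of many transcripts.

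Levels differed with the direction of the run, though the spread within a direction was wide, and *F10* and *Slc10a1* were taken as starting points because they were among the brightest. Of the 10 probes that read the *F10* run as printed, all were detected, 6 were above 5, the median level was 6.09 and the lowest -4.99. The 5 probes that read it on the opposite strand, 4 of them detected, had a median of -0.25 and a highest level of 1.56. The 15 probes with the run as printed for *Medag* were all detected, 11 of them above 5, with a median of 6.89, and the 2 in the direction of *Nanog* had mean levels of -1.84 and -6.29, 1 of them detected. For the *Slc10a1* run, the 6 probes in its direction had a median of 4.30, with 3 above 5 and the lowest at -5.01, and the 4 opposite ones had a median of -5.25. The probes differ outside the run, and how much of each signal came from repeat copies in other transcripts was not tested.

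**Figure D3:**
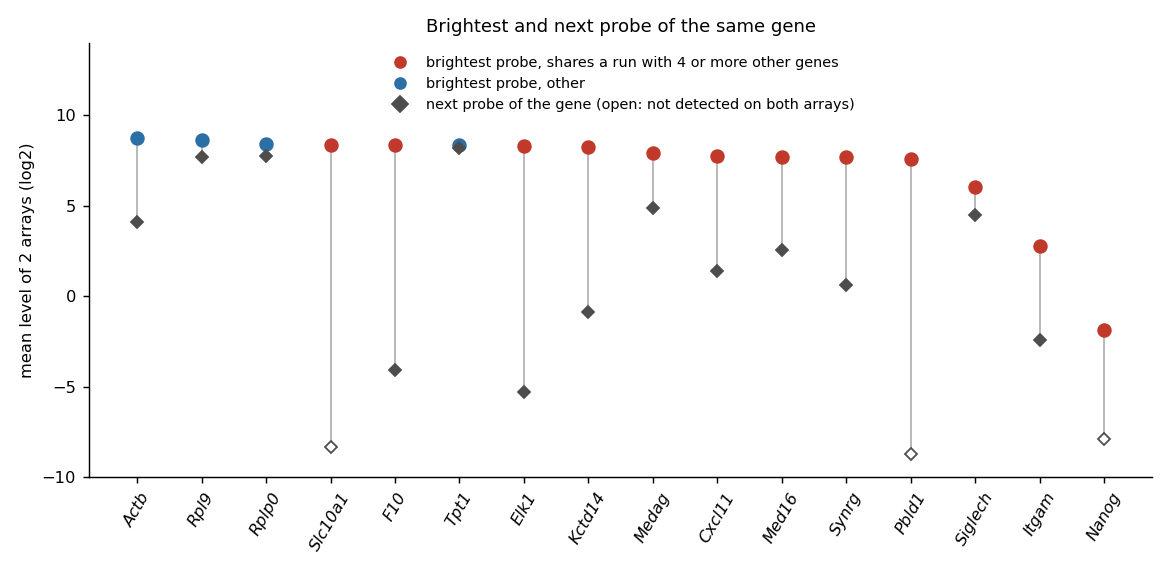
Mean level over both arrays (log2) of the brightest probe (circles) and the next probe (diamonds) of 16 genes in order of rank, red where the brightest probe shares a run of 14 bases with probes of 4 or more other genes. The next probes of *Slc10a1* and *Pbld1* were not detected (open diamonds), whereas those of *Tpt1* differ by 0.14.

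Sharing of this kind was concentrated among the brightest genes. A run of 14 bases shared with probes of 4 or more other genes occurred in the brightest probe of 535 detected genes (3.68%), of 179 of the 1453 genes in the top 10% (12.3%) and of 45 of the 145 in the top 1% (31.0%). Both arrays had 0 saturated spots. The shared runs include near-identical family members, such as the H2A histones *H2ac12*, *H2ac10* and *H2ac20*, whose signals may not be separable on the array. *Exosc2*, seventh in rank, shares its run with 2 other genes, fewer than the 4 required, so these counts leave it out. Whether its probe holds a repeat was not determined, and a count of shared runs can miss such probes. Outside the ribosomal protein, respiratory chain and histone lists, and not searched among collagens beyond the stroma list, the members that rest on such a probe and have no second one were *Csf3r*, the erythroid gene *Hemgn* (4.78 and 4.67), *Hdac7* (3.28 and 3.23), *Socs1*, *Etv6*, *Col1a1*, *Dusp1* and *Cdc20*, so that their levels carry the same limit. Without such probes *Itgam* moved from the 81.5th to the 28.7th percentile and *Siglech* from the 97.2th to the 93.7th, so the dendritic cell marker stayed high and the myeloid integrin did not. *Nanog*, a pluripotency gene, was detected by its repeat-bearing probe and not by its other.

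Probes of the same gene also disagreed in general. Among 3817 genes with 2 or more detected probes, the brightest and dimmest differed by a median of 2.12 log2 units (4.34-fold), and 52.2% differed by 2 units or more. Of 4806 detected genes with several probes, 24.4% had a probe that was not detected. Orders of genes given here are orders of probe signal, and gaps smaller than this spread carry no order of expression.

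Against this, the arrays were close to each other. Over the 14531 detected genes the levels correlated with Pearson's r = 0.996 and Spearman's rho = 0.997, which is a correlation across genes and not across samples. The median absolute difference was 0.14 log2 units (1.1-fold) and the SD of the difference 0.28. Of the genes, 164 (1.13%) differed 2-fold or more and 5 differed 4-fold or more. The share fell with level, from 3.06% of the 3633 dimmest genes to 0.0275% of the 3633 brightest. The 10 largest differences were all in genes between the 6.82th and 19.9th percentile, namely *Hoxa11os*, *Cyp2j8*, *Asb11*, *Gm2837*, *D630039A03Rik*, *Mrps36-ps1*, *Susd4*, *4930473H19Rik*, *Kir3dl1* and *Upk1b*. *Hoxa11os* was the most different, at -2.68 on replicate 1 and -5.07 on replicate 2.

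Spots of the same probe gave the floor of the measurement. For 266 detected probes printed 10 times, the median SD between spots was 0.0682 on replicate 1 and 0.0619 on replicate 2, and the median difference between the arrays was 0.129. In 71.8% of these probes the arrays differed by more than 2 standard errors of the spots, with the overall shift between the arrays left in. The 8 spike-in RNAs above the detection threshold differed by 0.02 to 0.12 before scaling over a range of 12.9 log2 units.

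The differences between the arrays were not spread evenly over gene groups. Over all detected genes the median of replicate 2 minus replicate 1 was 0.06, and 5440 (37.4%) were higher on replicate 1. For NK and innate lymphoid genes the median was -0.51, and 26 of 33 (78.8%) were higher on replicate 1, of which 7 by 2-fold or more. *Gzmb* was at 1.49 on replicate 1 and -0.22 on replicate 2, *Gzmc* (granzyme C) at 3.25 and 1.77 and *Cxcr6*, a chemokine receptor of innate lymphoid cells, at 1.91 and 0.57. For *Rora*, *Ncr1*, *Klrc1* and *Klrb1c*, replicate 2 minus replicate 1 ran from -1.33 to -1.04. *Gzma* went the other way, at 2.26 and 2.81, and *Tyrobp*, *Fcer1g*, *Ccl5* and *Cd7* differed by at most 0.22.

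At or above the 50th percentile, 12 genes differed 2-fold or more, and these were chosen after their values were seen. Besides *Gzmb*, *Gzmc*, *Cxcr6* and *Klrc1* they were *Ms4a4b*, *Klrb1a*, *Rbpms2*, *Pde2a*, *Upp1*, *Serpina3f* and *Gm2016*, all higher on replicate 1, and *Clec2d*, the ligand of the *Klrb1* family of NK receptors, which was higher on replicate 2 (0.53 and 1.87). Dendritic cell and MHC class II genes had a median difference of -0.21 with 15 of 22 higher on replicate 1, and T lineage genes -0.17 with 18 of 29. Progenitor genes (0.05), early lymphoid genes (0.04) and B lineage genes (0.08) lay near the median of all genes. Among the 25 lists with 13 or more detected genes, the neutrophil list had the highest median, 0.22, with *Mpo* higher by 0.61 on replicate 2. With 2 samples these differences have no test, and whether they reflect the makeup of the cultures was not tested.

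**Figure D4:**
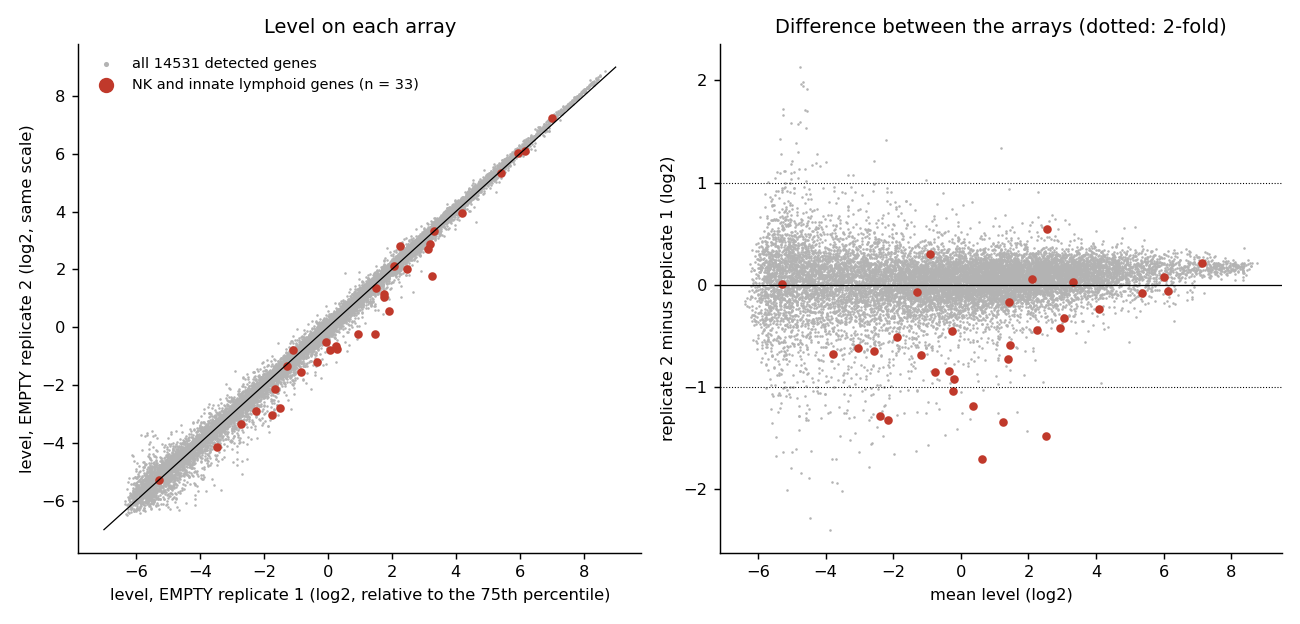
Left, level on EMPTY replicate 1 against replicate 2 (log2) for the 14531 detected genes in grey and 33 NK and innate lymphoid genes in red, with the line of equality. Right, replicate 2 minus replicate 1 against mean level, with dotted lines at 2-fold; the grey cloud widens at low levels, and most red points lie below 0 at middle levels.

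**Figure D5:**
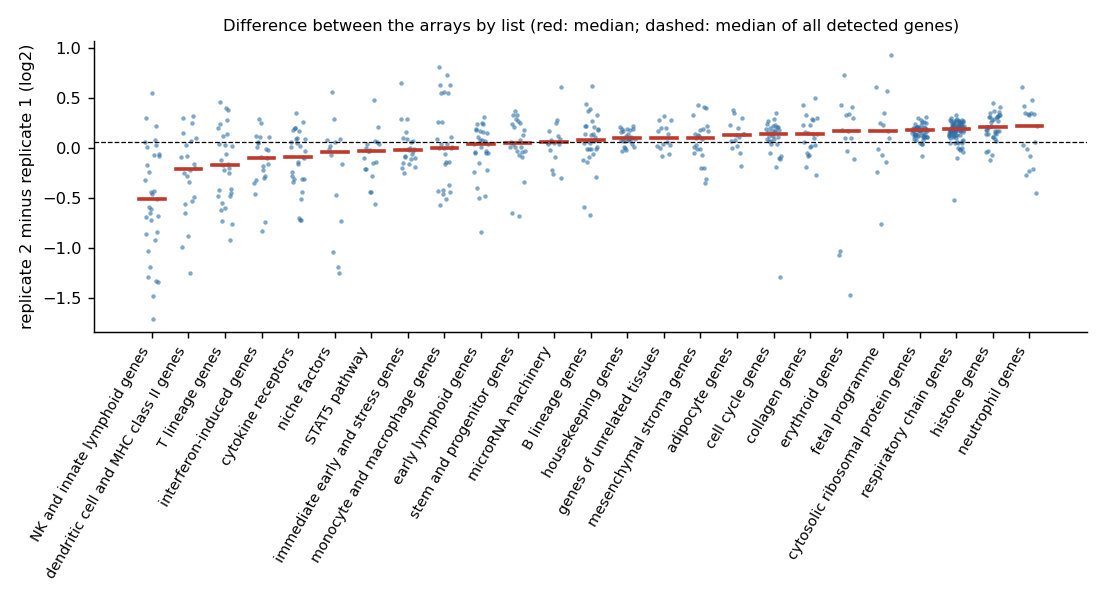
Replicate 2 minus replicate 1 (log2) for each detected member of the 25 lists with 13 or more detected genes, with list medians in red and the median of all detected genes, 0.06, as a dashed line. The NK and innate lymphoid list lies lowest at -0.51 and the neutrophil list highest at 0.22.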

How the data were processed

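RNA of 4 samples was hybridised to single-dye Agilent mouse arrays, and the 2 EMPTY arrays were used here. The authors deposited the scanner output, in which each spot has a background-corrected intensity, and a table of normalized log2 values, which was used as an alternative. The submitters' processing notes name Agilent Feature Extraction 11.5.1.1, whereas the deposited file headers give 9.1.3.1. From the deposited intensity, log2 was taken, each array's 75th percentile over non-control probes was subtracted and spots of a probe were averaged. Genes with a probe called well above background on both arrays were kept, and each took the level of its brightest probe. Accessions named 26055 probes through RefSeq, array symbols a further 4125, and 9249 stayed unnamed. Python 3.11.15, pandas 2.3.3, numpy 2.4.6 and limma 3.58.1 in R 4.3.3 (normexp, offset 50) were used, and the calculation was tested on simulated data.

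The text names the 25 genes of highest level, the defining markers and up to 5 brightest detected members of each of 32 gene lists, the 10 largest differences between the arrays, and *Ebf1*. Other genes named were chosen after their values were seen. A few genes that this rule names are not reported here, though list counts include them. The samples, gene lists and questions were chosen with earlier results of these data known. No test was run, since 1 group of 2 arrays is described and no group was compared with it. The number of arrays limits the precision. Alternatives covered background correction, scaling, the rule for several probes, the detection filter, outlier spots and leaving out either array. Leaving out probes that share sequence was chosen after seeing the data.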

Additional observations from a re-analysis of the deposited data

How the results depend on the processing

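The order of the brightest genes depended on how probes were treated. Of the 25 genes of highest level, 14 were shared with the ranking after normexp background correction, 16 with the mean of a gene's detected probes and 15 without probes that share sequence, the last chosen after seeing the data. The count of genes differing 2-fold or more between the arrays, 164, became 33 after normexp, 503 with a looser filter that kept genes detected on either array and 72 with a stricter one. Normexp lowered the median spread between probes of a gene from 2.12 to 1.74. Under the stricter filter the detected members fell to 1 eosinophil gene, 3 megakaryocyte genes, 2 bone and cartilage genes, 7 genes of unrelated tissues and 10 collagen genes. Hepatoblast genes rose from 5 to 8 with the looser filter, and were 5 to 8 when either array was left out. The count of detected members stayed within 1.5 times for all 32 lists under 8 alternatives. It did so for 31 lists with the looser filter and without EMPTY replicate 1, and for 27 with the stricter filter. Background correction, scaling, the authors' table and the mean of probes do not enter the detection call. The counts could therefore not change under those alternatives, which say nothing about how stable they are. No paired analysis was possible because 1 group was described and no groups were compared.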
